A study of Mus musculus with 4 samples.

Results

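The 9 genes described here encode Toll-like receptors: Tlr1, Tlr2, Tlr3, Tlr4, Tlr6, Tlr7, Tlr8, Tlr9 and Tlr13. They were taken by gene symbol, with no use of measured values, from the 32227 genes of the deposited tables, and all 9 were found. Cells were isolated from the cortex of wild-type mice at postnatal day 15 and sequenced by PIPseq, a droplet method that counts unique molecular identifiers (UMIs, one per captured RNA molecule). The newborn mice had received an intracortical adeno-associated virus with the astrocyte promoter GfaABC1D. In the Hevin group (2 libraries) the virus carried Hevin, a matricellular protein encoded by Sparcl1, and in the mCherry group (2 libraries) it carried the fluorescent protein mCherry, so the control mice had the virus and the injection too. All libraries came from cells bound to CD11b beads, and all tissue was dissociated with actinomycin D, triptolide and anisomycin, which block transcription and translation. The promoter is thus astrocytic, while the sort selects myeloid cells and left 22 to 79 astrocyte-gated cells per library. The labels do not say how many mice made up a library or that the replicates were separate animals, so every p-value below measures the spread between these libraries, which may be technical.

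Toll-like receptors bind molecules that are common to microbes and pass the signal on through the adaptors Myd88 and Ticam1 to NF-kappa-B and interferon regulatory factors. Tlr2, paired with Tlr1 or Tlr6, binds bacterial lipoproteins at the cell surface, and Tlr4 with its partner Ly96 binds lipopolysaccharide. Tlr3, Tlr7, Tlr8, Tlr9 and Tlr13 sit in endosomes and bind nucleic acids: double-stranded RNA for Tlr3, single-stranded RNA for Tlr7 and Tlr8, unmethylated CpG DNA for Tlr9 and bacterial ribosomal RNA for Tlr13. In the brain these receptors are known mainly from microglia and from the macrophages of the brain's borders.

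After filtering, 61371 cells remained of 61686 barcodes, between 10849 and 19653 per library, with a median of 2329 to 4037 UMIs per cell. Library pairs shared between 1 and 7 barcodes, at most 0.0535% of the smaller library. Cells were assigned to classes by the share of their UMIs from marker genes, none of them a Toll-like receptor. Microglia-gated cells (P2ry12 and Tmem119) made up 85.4% and 85.2% of cells in mCherry but 32.4% and 43.3% in Hevin. Apoe-high-gated cells, with high Apoe, Ms4a7 and no Sall1, were 0.16% and 0.18% of cells in mCherry (29 and 19 cells) but 36.4% and 32.5% in Hevin (7155 and 4239 cells). Border-macrophage-gated cells (Lyve1, Cd163, F13a1 and Cbr2) made up 7.13% and 8.0% in mCherry and 5.11% and 5.85% in Hevin. Of the markers that the gates did not use, Mrc1, a macrophage mannose receptor, was at 4756 to 5383 CPM (UMI counts scaled to a common total) in border-macrophage-gated cells and 117 to 206 CPM in microglia-gated cells. The CD11b gene Itgam was detected in all 3 classes, at 226 to 951 CPM. It was at 65.1 to 173 CPM in endothelial-gated and 103 to 276 CPM in astrocyte-gated cells, so the ranges overlap at the lower end. Sparcl1 itself measured 123 and 91.4 CPM in mCherry against 86.4 and 78.4 CPM in Hevin over all cells. In astrocyte-gated cells (22 to 79 per library) Sparcl1 was at 5085 and 6439 CPM in mCherry and 5027 and 9880 CPM in Hevin, so these sorted cells give no clear check of the labels. Whether the counted part of the transcript is in the vector was not stated.

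The genes lie on 6 chromosomes of mm10 (GENCODE positions). Tlr1 (chr5:64924679-64933563) and Tlr6 (chr5:64952031-64960097) are neighbours on the minus strand with 18467 bases between them, and reads from these similar genes may be shared. Tlr7 (chrX:167304929-167330558) and Tlr8 (chrX:167242696-167264329) are neighbours on the X chromosome, 40599 bases apart. Tlr13 (chrX:106143204-106160493) is also X-linked. Tlr2 is at chr3:83836272-83841767, Tlr4 at chr4:66827584-66930284 and Tlr9 at chr9:106222598-106226883. Tlr3 (chr8:45395665-45411080) overlaps Gm45542 on the opposite strand, and no source used here says whether counting used the strand. Promoters of 7 of the 9 genes, at 9 start sites, were found in the RefSeq table (GRCm38.p6). The stretches before the start of Tlr8, Tlr1 and Tlr2 are shown because these 3 genes were higher in the Hevin libraries. They hold the part of the 250 bases before the start that lies in no annotated exon, on the minus strand, 5′ to 3′, and capitals mark the motif matches described after them.
Tlr8 (chrX:167264330-167264579): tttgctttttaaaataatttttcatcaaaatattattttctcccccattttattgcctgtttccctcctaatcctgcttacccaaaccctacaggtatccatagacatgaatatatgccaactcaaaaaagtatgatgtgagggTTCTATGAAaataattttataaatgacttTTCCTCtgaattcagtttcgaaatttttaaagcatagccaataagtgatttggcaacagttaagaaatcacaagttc
Tlr1 (chr5:64933564-64933808): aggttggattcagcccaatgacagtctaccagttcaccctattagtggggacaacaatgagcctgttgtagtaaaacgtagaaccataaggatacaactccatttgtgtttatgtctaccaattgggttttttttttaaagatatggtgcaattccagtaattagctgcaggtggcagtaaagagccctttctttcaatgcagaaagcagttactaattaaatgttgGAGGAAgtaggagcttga
Tlr2 (chr3:83841768-83841858): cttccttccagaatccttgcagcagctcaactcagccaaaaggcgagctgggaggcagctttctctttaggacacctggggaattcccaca

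The motifs were searched on both strands in the 250 bases before each start. The core of PU.1 (Spi1), the lineage factor of myeloid cells, was written GAGGAA. It was found at 4 of the 9 member starts (of Tlr1, Tlr8, Tlr9 and Tlr13) and in 23.3% of all 32851 promoters. The interferon gamma-activated site, TTCNNNGAA, was found at a start of Tlr1 and of Tlr8 and in 7.02% of all promoters. In the printed Tlr8 stretch it lies 106 to 98 bases before the start, and the PU.1 letters, read on the other strand, lie 77 to 72 bases before it, with no overlap. The interferon-stimulated response element (GAAA, any pair of bases, GAAA) was found at 1 start of Tlr6 as a pair of overlapping matches (2.98% of all promoters). The NF-kappa-B motif (GGGA, any base, TTTCC) was found once, before Tlr3 (0.36% of all promoters), and the AP-1 motif TGANTCA once, before Tlr9 (6.75%). A match describes letters in these windows and is not a measured binding site.

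Levels of each receptor were set side by side over the gated classes as CPM with 95% Poisson intervals, which cover counting error only. The order of classes by mean level differed between receptors, and many neighbouring classes overlapped. Tlr2 was highest in Apoe-high-gated cells, at 174 ± 22.2 CPM (mean ± SD over the 3 libraries with at least 20 such cells), and the lowest of these libraries was above every border-macrophage library (72.8 ± 8.17 CPM, n = 4) and every microglia library (56.2 ± 8.37 CPM, n = 4). Border-macrophage-gated and microglia-gated libraries overlapped for Tlr2. Tlr4 was highest in border-macrophage-gated cells, at 186 ± 11.6 CPM (n = 4), with no library as low as the highest Apoe-high library (80.1 ± 20.3 CPM, n = 3), while Apoe-high and microglia (68.7 ± 4.91 CPM, n = 4) overlapped. Tlr3 was highest outside the myeloid classes, in astrocyte-gated cells, at 77.8 ± 17.0 CPM (n = 4), followed by microglia-gated cells at 31.8 ± 3.59 CPM (n = 4). Tlr3 in border-macrophage-gated cells was 11.5 ± 1.41 CPM (n = 4), which overlapped with the Apoe-high, monocyte and MHC-class-II-high classes.

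**Figure D1:**
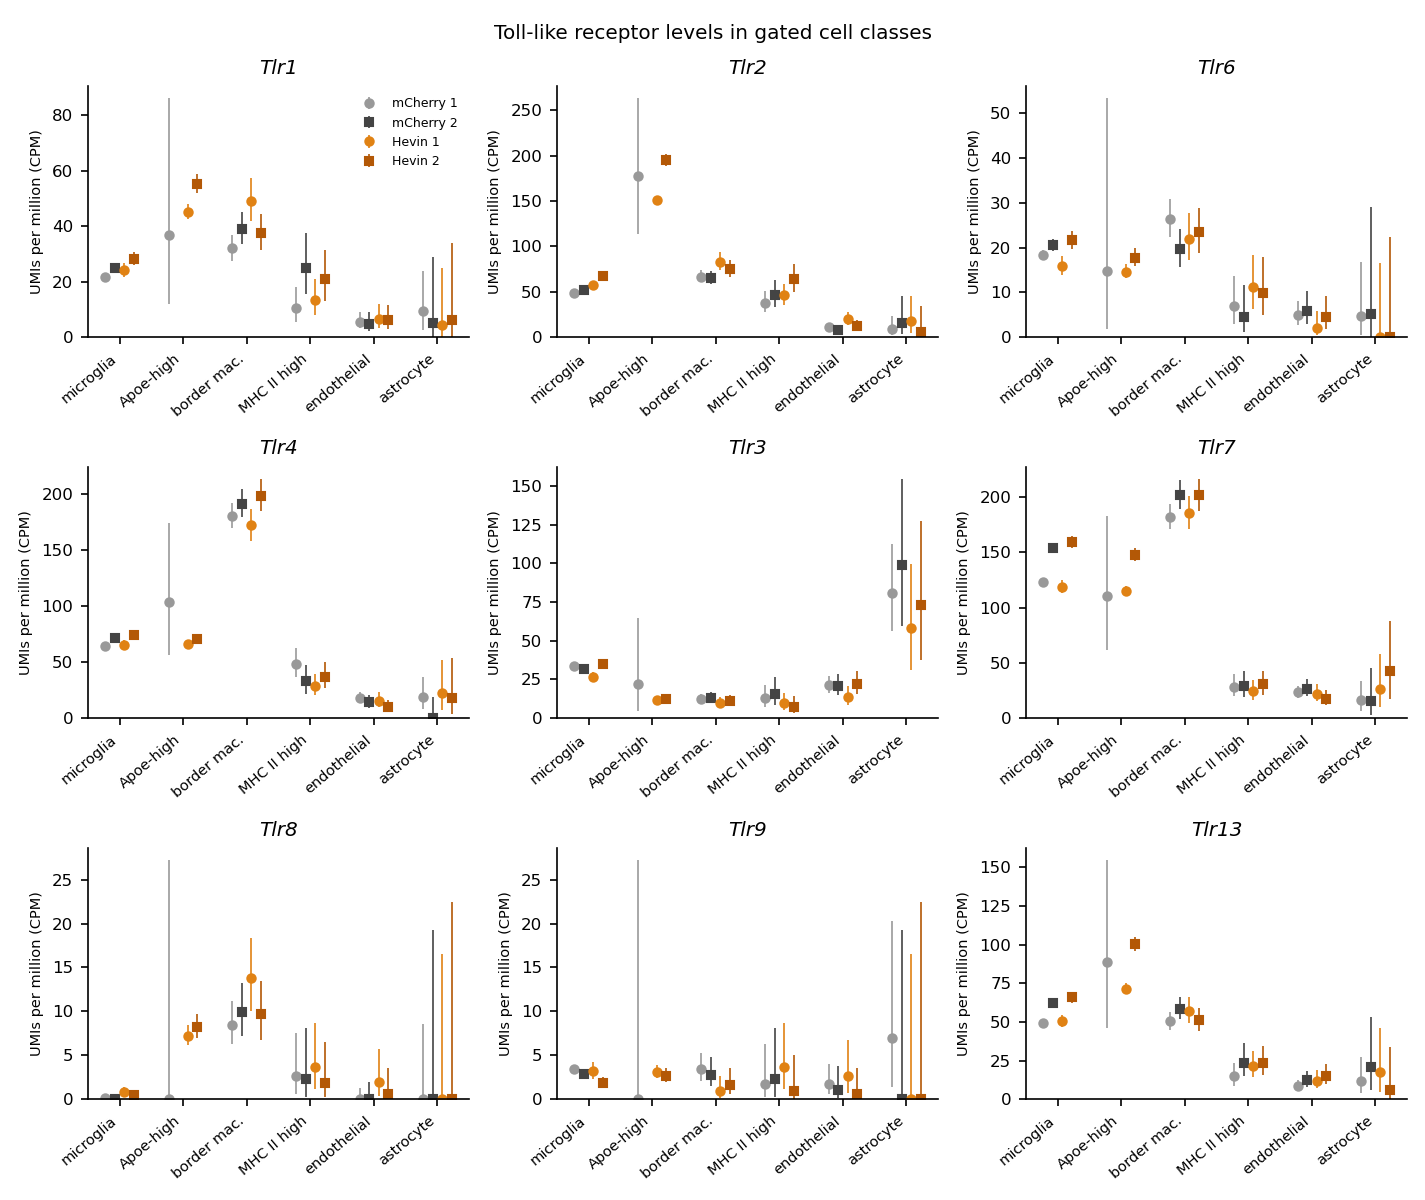
Level of each Toll-like receptor (CPM, vertical axis from 0, own scale per gene) in 6 gated cell classes, 1 point per library with at least 20 cells of the class, with 95% Poisson intervals. Tlr2 stands highest in Apoe-high-gated cells, Tlr4 in border-macrophage-gated cells and Tlr3 in astrocyte-gated cells, and the single mCherry library with 29 Apoe-high-gated cells has wide intervals.

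Tlr7 was at 193 ± 10.4 CPM (n = 4) in border-macrophage-gated cells, 139 ± 20.9 CPM (n = 4) in microglia-gated cells and 125 ± 20.2 CPM (n = 3) in Apoe-high-gated cells, with no overlap between border-macrophage and microglia libraries and overlap between microglia and Apoe-high libraries. Cells joining microglial markers and high Apoe (164 ± 31.9 CPM, n = 3) overlapped with both the border-macrophage and the microglia libraries. MHC-class-II-high-gated cells stood apart from these classes, at 28.3 ± 2.71 CPM (n = 4). Tlr8 was at 10.5 ± 2.28 CPM (n = 4) in border-macrophage-gated cells and 0.384 ± 0.338 CPM (n = 4) in microglia-gated cells. That microglial level lies below the mean of 0.65 CPM in endothelial-gated cells, which are not known for Tlr8 and which serve here as a measure of free RNA in the droplets. Tlr13 was at 86.8 ± 14.5 CPM (n = 3) in Apoe-high-gated, 57.2 ± 8.31 CPM (n = 4) in microglia-gated and 54.4 ± 4.01 CPM (n = 4) in border-macrophage-gated cells. Tlr9 did not pass 4 CPM in any microglia, Apoe-high or border-macrophage library and its classes overlapped throughout. Tlr1 and Tlr6, the partners of Tlr2, were at 24.8 ± 2.70 and 19.1 ± 2.54 CPM (n = 4) in microglia-gated cells.

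At least 1 UMI of any of the 9 receptors was found in 53.1% to 79.5% of microglia-gated cells per library, with a median depth of 2070.5 to 3954 UMIs per cell, and in 35.8% to 49.0% of endothelial-gated cells, with a median of 3744 to 6194 UMIs. With every cell thinned to 1000 UMIs, the share was 29.8% to 36.8% of microglia-gated cells and 8.06% to 11.5% of endothelial-gated cells. In border-macrophage-gated cells the thinned share was 42.4% to 44.6%. In Apoe-high-gated cells of the Hevin libraries it was 37.2% and 45.3%. At equal depth, a receptor UMI was thus more frequent in each of these macrophage classes than in endothelial-gated cells in every library compared.

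The first comparison asked whether receptor levels in the whole sorted population differed between Hevin and mCherry libraries. Tlr1, Tlr2 and Tlr8 were higher in the Hevin libraries, and no receptor was called lower. Of all 19119 genes tested, 11.1% were called in either direction (6.85% higher and 4.30% lower), against 3 of the 9 receptors. In such sums over all cells, more cells of a type and more RNA per cell cannot be told apart.

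Tlr2 was at 45.9 and 49.0 TMM-scaled CPM (CPM after edgeR's correction for composition) in mCherry against 113 and 125 in Hevin. The groups did not overlap, and the log2 fold change was 1.32 ± 0.08 (SE, edgeR quasi-likelihood test with Benjamini-Hochberg adjustment, adjusted p = 0.000234). Tlr8 was at 0.946 and 1.01 scaled CPM in mCherry and 5.79 and 4.91 in Hevin, from 67, 52, 305 and 250 UMIs. The groups did not overlap, and the log2 fold change was 2.45 ± 0.19 (edgeR adjusted p = 0.000708). Tlr1 was at 20.8 and 24.5 scaled CPM in mCherry and 39.0 and 42.1 in Hevin. These groups did not overlap either, and the log2 fold change was 0.85 ± 0.10 (edgeR adjusted p = 0.00316).

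Tlr3 and Tlr13 did not pass the threshold. Their groups did not overlap, but with 2 libraries against 2 this often happens without a difference. The share of all genes without overlap was not counted. Tlr3 was at 29.2 and 28.1 scaled CPM in mCherry and 17.0 and 23.1 in Hevin (log2 fold change -0.51 ± 0.14, edgeR adjusted p = 0.0677). It was called lower with DESeq2, with total counts in place of TMM, when genes under a mean of 10 CPM were dropped and without a gene filter (adjusted p = 0.0103, 0.0386, 0.0404 and 0.0168). It was also called without mCherry replicate 1, mCherry replicate 2 or Hevin replicate 2 (edgeR adjusted p = 0.0365, 0.0161 and 0.00241). In each fit without a library 1 group has a single library, which is assumed to vary like the other group. Tlr13 was at 44.4 and 56.5 scaled CPM in mCherry and 62.9 and 78.9 in Hevin (0.49 ± 0.14, edgeR adjusted p = 0.0782) and was called higher with DESeq2 (adjusted p = 0.0137), without a gene filter (edgeR adjusted p = 0.0182), without genes under a mean of 10 CPM (edgeR adjusted p = 0.04995), without mCherry replicate 2 (edgeR adjusted p = 0.000238) and without Hevin replicate 1 (edgeR adjusted p = 0.0105). Tlr4, Tlr6, Tlr7 and Tlr9 had log2 fold changes between -0.10 and 0.10 with overlapping groups and were not called.

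The classes of cells that held the UMIs differed between the groups. Apoe-high-gated cells held 58.1% and 53.5% of the Tlr2 UMIs in Hevin but 0.738% and 0.317% in mCherry, where microglia-gated cells held 80.1% and 81.2%. Of the Tlr8 UMIs, border-macrophage-gated cells held 74.6% and 88.5% in mCherry but 14.8% and 14.4% in Hevin, where Apoe-high-gated cells held 54.4% and 57.6%. Tlr3 UMIs lay mostly in microglia-gated cells in each mCherry library (87.9% and 87.3%) and less so in Hevin (44.3% and 60.0%).

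**Figure D2:**
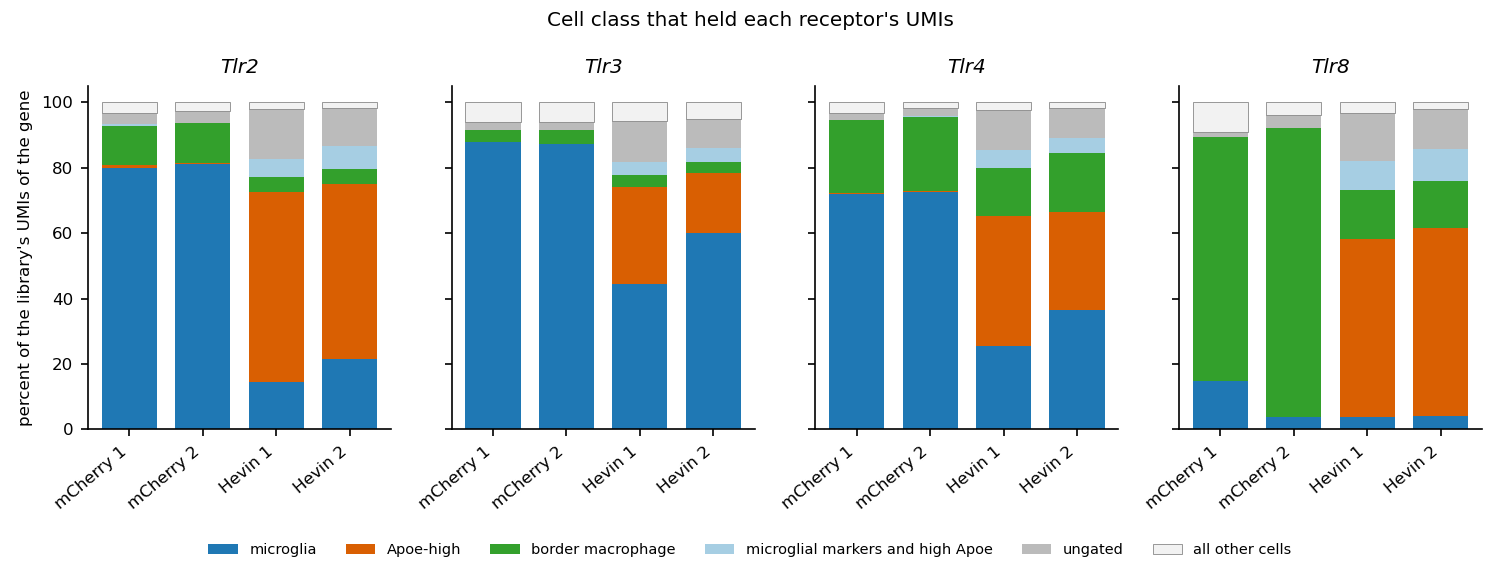
Percent of each library's UMIs of Tlr2, Tlr3, Tlr4 and Tlr8 (vertical axis) that came from each gated class, 1 bar per library, all cells of the library adding to 100. In the Hevin libraries the Apoe-high-gated cells (orange) held 58.1% and 53.5% of the Tlr2 UMIs and 54.4% and 57.6% of the Tlr8 UMIs, against under 1% in both mCherry libraries.

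Within microglia-gated cells, no receptor was called between Hevin and mCherry. Of all 17100 genes tested, 0 were called by edgeR (959 had an unadjusted p under 0.05), and DESeq2 called 137, none of them a receptor. Tlr2 was at 48.4 and 51.6 CPM in mCherry and 57.5 and 67.4 CPM in Hevin. The groups did not overlap, and the log2 fold change was 0.37 ± 0.10 (edgeR adjusted p = 0.526). Tlr8 rested on 10 and 2 UMIs in mCherry and 12 and 10 in Hevin, and its log2 fold change was 2.35 ± 0.67 (edgeR adjusted p = 0.587). Without a gene filter both were called (edgeR adjusted p = 0.0119 for Tlr2 and 0.0222 for Tlr8). Both were also called with the replicate number as a block (edgeR adjusted p = 0.00029 and 0.00325), but the labels do not pair the libraries. Endothelial-gated cells of the same libraries had 0 and 0 Tlr8 UMIs in mCherry and 3 and 1 in Hevin. In CPM, microglia-gated cells lay above them in both mCherry libraries and below them in both Hevin libraries. These counts are too small to tell the 2 classes apart. Markers of the Apoe-high class moved with the group inside the microglia gate: Ms4a7 was at 13.9 and 8.83 CPM in mCherry and 105 and 61.9 CPM in Hevin, and Apoe at 1553 and 1301 against 4763 and 3350 CPM. Endothelial-gated cells moved likewise, with Ms4a7 at 12.8 and 8.40 CPM in mCherry and 93.8 and 50.5 CPM in Hevin. The part of these markers in the Tlr2 and Tlr8 differences was not tested. The other 7 receptors had log2 fold changes between -0.30 and 0.22. The share of microglia-gated cells with a Tlr2 UMI was 14.7% and 18.7% in mCherry and 11.9% and 20.04% in Hevin. Thinned to 1000 UMIs per cell it was 4.51% and 4.80% against 5.27% and 6.08%, beside 2.03% and 0% against 2.47% and 0.667% in endothelial-gated cells.

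Border-macrophage-gated cells, present in every library, gave another class for the same comparison. None of the 9 receptors was called, against 0.585% of the 12309 genes tested (0.146% higher and 0.439% lower), and 1101 genes had an unadjusted p under 0.05. Tlr2 was at 66.8 and 65.6 CPM in mCherry and 83.1 and 75.5 CPM in Hevin, without overlap (log2 fold change 0.30 ± 0.10, edgeR adjusted p = 0.354). Tlr4, the receptor that is highest in this class, was at 180 and 191 CPM in mCherry and 172 and 198 CPM in Hevin, with overlap (0.04 ± 0.10, edgeR adjusted p = 0.959). Tlr9 rested on 20 and 13 UMIs in mCherry and 3 and 6 in Hevin (-1.21 ± 0.55, edgeR adjusted p = 0.564). Whether Hevin and mCherry differed by unequal amounts in border-macrophage-gated and microglia-gated cells was tested as an interaction. No receptor was called, against 0.376% of 15153 genes (all of them lower). For Tlr8 the difference was -1.93 ± 0.64 (edgeR adjusted p = 0.550), for Tlr9 -0.89 ± 0.59 (edgeR adjusted p = 0.934), and for Tlr2 the difference was -0.07 ± 0.13 on the log2 scale (edgeR adjusted p = 0.999).

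**Figure D3:**
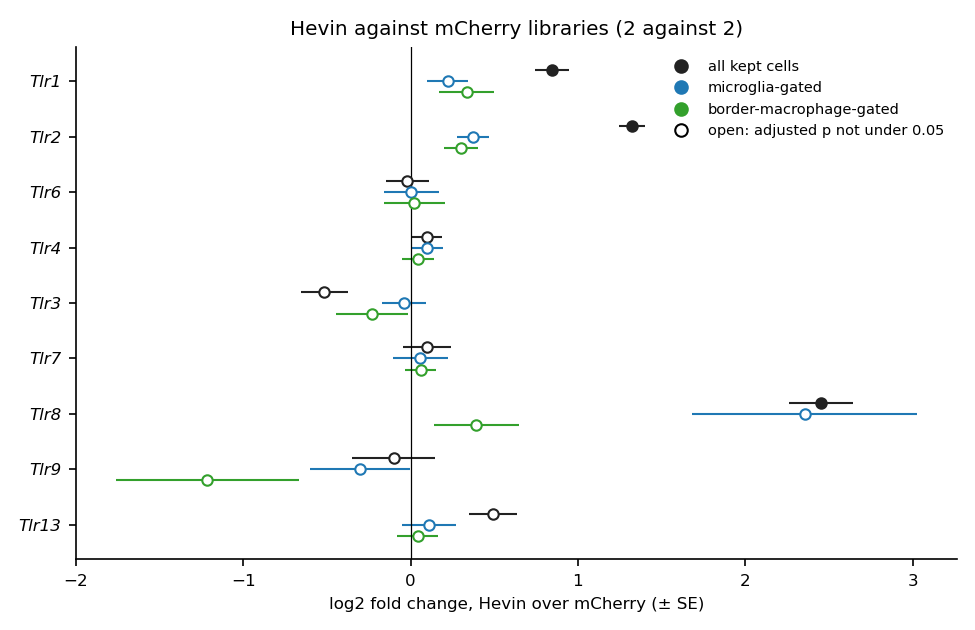
Log2 fold change of each receptor between Hevin and mCherry libraries (horizontal axis, ± SE, 2 against 2) in all kept cells, microglia-gated cells and border-macrophage-gated cells, with filled points for an adjusted p under 0.05. Tlr1, Tlr2 and Tlr8 are filled in all kept cells and no receptor is filled within either class.

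Apoe-high-gated cells were next compared with microglia-gated cells of the same libraries, with the library as a block. Tlr1, Tlr2, Tlr8 and Tlr13 were higher in Apoe-high-gated cells, Tlr3 was lower, and Tlr4, Tlr6, Tlr7 and Tlr9 were not called. This is 5 of 9 receptors, against 39.7% of the 15459 genes tested (20.8% higher and 18.9% lower). The fit used the 3 libraries with at least 20 cells of both classes, and 1 of them, mCherry replicate 1, had 29 Apoe-high-gated cells. Those 29 cells differed in other markers too: the border macrophage list summed to 635 CPM in them and to 151 and 116 CPM in the Hevin libraries, and the interferon-response list to 938 CPM against 118 and 93.5 CPM. Values of the receptors from the Hevin libraries alone are therefore given as well.

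Tlr2 was at 46.6, 57.9 and 67.9 scaled CPM in microglia-gated cells and 156, 163 and 212 in Apoe-high-gated cells of mCherry replicate 1, Hevin replicate 1 and Hevin replicate 2. All Apoe-high values lay above all microglial values. The log2 fold change was 1.58 ± 0.06 (edgeR adjusted p = 5.8e-141, and 1.57 with adjusted p = 8.6e-09 in the Hevin libraries alone). The very small p-values of this fit come with an infinite prior degree of freedom, which means that edgeR pooled the spread fully over genes. The fits below of cells with microglial markers and high Apoe, and of monocyte-gated, mural-gated, chemokine-expressing and dividing cells, had an infinite prior too. Tlr8 was at 0.179, 0.814 and 0.496 scaled CPM in microglia-gated cells and 0, 7.82 and 8.98 in Apoe-high-gated cells. Tlr8 thus had no UMI in the 29 cells of mCherry replicate 1 and 166 and 144 UMIs in the Hevin libraries (log2 fold change 3.69 ± 0.31, and 3.72 with edgeR adjusted p = 1.1e-06 in the Hevin libraries alone).

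Tlr1 had a log2 fold change of 1.03 ± 0.08 (1.04 with edgeR adjusted p = 5.0e-07 in the Hevin libraries alone), with 20.9, 24.4 and 28.5 scaled CPM in microglia-gated and 32.4, 48.7 and 60.0 in Apoe-high-gated cells. Tlr6, the other partner of Tlr2, did not follow: it was at 17.6, 16.0 and 21.8 against 12.97, 15.8 and 19.3 scaled CPM (-0.11 ± 0.10, edgeR adjusted p = 0.461, and 0.386 in the Hevin libraries alone). Tlr3 was at 32.5, 26.9 and 35.1 scaled CPM in microglia-gated cells and 19.5, 12.6 and 13.4 in Apoe-high-gated cells, without overlap (-1.24 ± 0.10, and -1.24 with edgeR adjusted p = 2.3e-06 in the Hevin libraries alone). Tlr13 had a log2 fold change of 0.66 ± 0.06 (edgeR adjusted p = 1.9e-24, and 3.1e-06 in the Hevin libraries alone), a call that was lost without Hevin replicate 2 (adjusted p = 0.0825). Tlr4 (0.09 ± 0.06), Tlr7 (0.01 ± 0.06) and Tlr9 (0.29 ± 0.27) were not called (edgeR adjusted p = 0.286, 0.888 and 0.443). In the Hevin libraries alone their log2 fold changes were 0.08, 0.02 and 0.31 (edgeR adjusted p = 0.263, 0.751 and 0.342).

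By cells, 32.9% and 47.0% of the Apoe-high-gated cells of the Hevin libraries had a Tlr2 UMI, at a median of 2812 and 3624 UMIs per cell, against 11.9% and 20.04% of microglia-gated cells at 2070.5 and 3307 UMIs and 9.47% and 10.7% of endothelial-gated cells at 3744 and 5847 UMIs. Thinned to 1000 UMIs the shares were 13.1% and 16.9%, 5.27% and 6.08%, and 2.47% and 0.667%. For Tlr3 the order was the other way: 0.944% and 1.32% of Apoe-high-gated cells and 2.19% and 3.64% of microglia-gated cells after thinning, beside 0.707% and 3.33% of endothelial-gated cells. Endothelial-gated cells had Tlr3 at 13.8 to 22.1 CPM, above the border-macrophage mean, so they are no measure of free RNA for this receptor. Cells that met both the microglial bound and the Apoe bound (1080 and 650 in the Hevin libraries) lay on the Apoe-high side: Tlr2 was at 135 and 187 CPM, and its log2 fold change over microglia-gated cells was 1.33 ± 0.08 (edgeR adjusted p = 2.7e-55, 3 libraries). In these cells 5 receptors were called (Tlr1, Tlr2, Tlr7 and Tlr13 higher and Tlr3 lower), against 23.6% of 13552 genes (12.2% higher and 11.5% lower), and 2 were called when Hevin replicate 1 or Hevin replicate 2 was left out.

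Border-macrophage-gated cells differed from microglia-gated cells in a set of receptors that partly matched that of Apoe-high-gated cells. Tlr1, Tlr2, Tlr8 and Tlr3 were called in the same direction in both comparisons, and Tlr4, Tlr7 and Tlr13 were not. In border-macrophage-gated cells Tlr1, Tlr2, Tlr4, Tlr7 and Tlr8 were higher, Tlr3 and Tlr13 lower, and Tlr6 and Tlr9 not called, over 4 libraries with the library as a block. This is 7 of 9 receptors, against 59.4% of the 14244 genes tested (29.2% higher and 30.2% lower). Tlr4 was at 63.9, 71.2, 65.3 and 74.3 CPM in microglia-gated cells and 180, 191, 172 and 198 CPM in border-macrophage-gated cells of mCherry replicates 1 and 2 and Hevin replicates 1 and 2. No values overlapped, and the log2 fold change was 1.29 ± 0.04 (edgeR adjusted p = 1.2e-09). Tlr8 was at 0.186, 0.050, 0.809 and 0.492 CPM in microglia-gated and 8.50, 9.90, 13.7 and 9.70 CPM in border-macrophage-gated cells (4.95 ± 0.38, edgeR adjusted p = 5.8e-07). Tlr3 was at 33.8, 31.8, 26.8 and 34.8 CPM against 12.4, 12.9, 9.78 and 11.1 CPM (-1.59 ± 0.09, edgeR adjusted p = 4.3e-08). Tlr1 (0.51 ± 0.09), Tlr7 (0.34 ± 0.05) and Tlr2 (0.23 ± 0.06) rose by less. Tlr2 lost its call without the library block (edgeR adjusted p = 0.143). Tlr13 (-0.21 ± 0.07, edgeR adjusted p = 0.0273) lost its call with DESeq2, with total counts in place of TMM, without the library block, without mCherry replicate 2 and without Hevin replicate 2 (adjusted p = 0.137, 0.491, 0.115, 0.142 and 0.149).

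**Figure D4:**
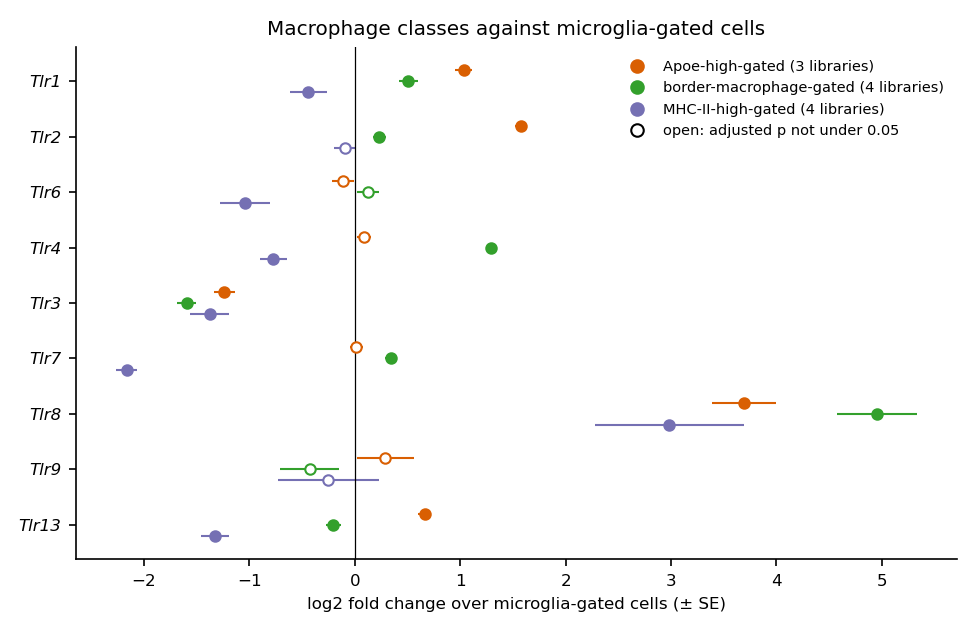
Log2 fold change of each receptor (horizontal axis, ± SE) in Apoe-high-gated, border-macrophage-gated and MHC-class-II-high-gated cells over microglia-gated cells of the same libraries, with filled points for an adjusted p under 0.05. Tlr8 lies right of 0 and Tlr3 left of 0 in all 3 classes, Tlr4 is filled to the right in border-macrophage-gated cells alone, and Tlr7 lies at -2.17 in MHC-class-II-high-gated cells.

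The 2 Apoe-expressing macrophage classes were also set against each other, a comparison added after the values were seen. Tlr2 (log2 fold change 1.32 ± 0.11, edgeR adjusted p = 4.4e-12), Tlr13 (0.84 ± 0.11) and Tlr1 (0.40 ± 0.13) were higher in Apoe-high-gated than in border-macrophage-gated cells, and Tlr4 (-1.22 ± 0.10, edgeR adjusted p = 2.9e-12) and Tlr7 (-0.40 ± 0.09) were lower. Of all 12342 genes, 41.2% were called (18.1% higher and 23.1% lower). Tlr8 was not called (-0.43 ± 0.24, edgeR adjusted p = 0.16). Without mCherry replicate 1, Tlr9 was called higher too (1.37, edgeR adjusted p = 0.0205). Of these calls, Tlr1 and Tlr7 were lost when Hevin replicate 1 or Hevin replicate 2 was left out (edgeR adjusted p = 0.108 and 0.865 for Tlr1, 0.277 and 0.0514 for Tlr7), and Tlr13 was lost without Hevin replicate 2 (edgeR adjusted p = 0.0605). Tlr2 and Tlr4 kept theirs without each library in turn.

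MHC-class-II-high-gated cells (114 to 261 per library) had lower levels of most receptors than microglia-gated cells. Tlr1, Tlr3, Tlr4, Tlr6, Tlr7 and Tlr13 were lower and Tlr8 higher, which is 7 of 9 receptors against 50.9% of 13568 genes (25.5% higher and 25.4% lower). Tlr7 was at 28.5, 29.4, 24.5 and 30.8 CPM in mCherry replicates 1 and 2 and Hevin replicates 1 and 2, against 123, 154, 119 and 160 CPM in microglia-gated cells. The log2 fold change was -2.17 ± 0.10 (edgeR adjusted p = 1.1e-12). These Tlr7 levels were near the 17.7 to 26.8 CPM of endothelial-gated cells. Tlr2 was not called (-0.10 ± 0.10, edgeR adjusted p = 0.468). The Tlr8 call rests on 2 to 5 UMIs per library. The Tlr1 call (-0.44 ± 0.18, edgeR adjusted p = 0.0478) was lost without mCherry replicate 1, Hevin replicate 1 or Hevin replicate 2 (adjusted p = 0.208, 0.166 and 0.0751).

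Monocyte-gated cells (31 to 52 in 3 libraries) had 1 call, a lower Tlr4 (-0.999 ± 0.35, edgeR adjusted p = 0.0258, against 17.8% of 13032 genes called, 8.38% higher and 9.41% lower), which was lost without Hevin replicate 1 or 2 (adjusted p = 0.0744 and 0.215). The interferon-response list summed to 679, 1913 and 585 CPM in them (mCherry replicate 1, Hevin replicates 1 and 2). Their Apoe was at 11118 and 10685 CPM in Hevin, against 3696 and 2223 CPM in endothelial-gated cells. This gate may thus hold cells other than monocytes, so its receptor levels may not be those of monocytes alone, which was not tested. In endothelial-gated cells all 8 receptors tested were lower than in microglia-gated cells, against 66.5% of 14227 genes called (31.6% higher and 34.8% lower). The smallest of these 8 differences was that of Tlr3 (-0.83 ± 0.10, edgeR adjusted p = 3.9e-05), and the largest that of Tlr7 (-2.73 ± 0.12). The Tlr9 call (-1.06 ± 0.36, edgeR adjusted p = 0.0252) was lost without mCherry replicate 1, mCherry replicate 2 or Hevin replicate 2 (adjusted p = 0.1, 0.0916 and 0.0508). In mural-gated cells (24 and 32 in 2 libraries) Tlr2, Tlr4, Tlr7 and Tlr13 were lower, against 18.2% of 13591 genes (8.12% higher and 10.0% lower). Astrocyte-gated cells differed from the other non-myeloid classes in Tlr3. Tlr3 was at 80.9, 99.0, 58.1 and 73.0 CPM in mCherry replicates 1 and 2 and Hevin replicates 1 and 2, from 35, 19, 13 and 12 UMIs. All 4 values lay above all microglial values, with a log2 fold change of 0.92 ± 0.23 (edgeR adjusted p = 0.000509). Of the other receptors, 6 were lower in astrocyte-gated cells (7 calls of 8 tested, against 47.4% of 13727 genes, 20.3% higher and 27.2% lower).

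Microglia-gated cells in an interferon-responsive state (Ifit1, Ifit2, Ifit3, Isg15, Rsad2 and Cxcl10) were compared with the other microglia-gated cells, because Tlr3 is known as an interferon-induced gene. Tlr3 was at 76.3 and 106 CPM in the interferon-responsive cells of mCherry replicates 1 and 2, from 7 and 9 UMIs in 26 and 20 cells, against 33.8 and 31.7 CPM in the other microglia-gated cells. The groups did not overlap, and the log2 fold change was 1.34 ± 0.42 (edgeR adjusted p = 0.837, 2 libraries, against 0.361% of 15236 genes called). No receptor was called. In the Hevin libraries, which had too few such cells to enter the fit (12 and 19), Tlr3 was at 139 and 169 CPM in the interferon-responsive cells, from 4 and 11 UMIs, against 26.5 and 34.4 CPM. Tlr3 was thus higher in the interferon-responsive cells in 4 of 4 libraries.

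The same comparison within Apoe-high-gated cells was added after the values were seen and could be made in the 2 Hevin libraries. Tlr3 was at 58.5 and 63.1 CPM in 82 and 40 interferon-responsive cells, from 15 and 9 UMIs, and at 11.2 and 11.9 CPM in the other Apoe-high-gated cells. The log2 fold change was 2.33 ± 0.48 (edgeR adjusted p = 9.0e-05), the 1 receptor called, against 2.28% of 13178 genes (1.77% higher and 0.508% lower). This fit had 1 residual degree of freedom and an infinite prior, so its p-values rest on spread pooled over genes. The microglial fit had a prior of 5.39, so the adjusted p-values of these fits are not alike. Tlr2 was at 228 and 285 against 155 and 197 scaled CPM (0.55 ± 0.17, edgeR adjusted p = 0.0588). Tlr8 had no UMI in these interferon-responsive cells.

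**Figure D5:**
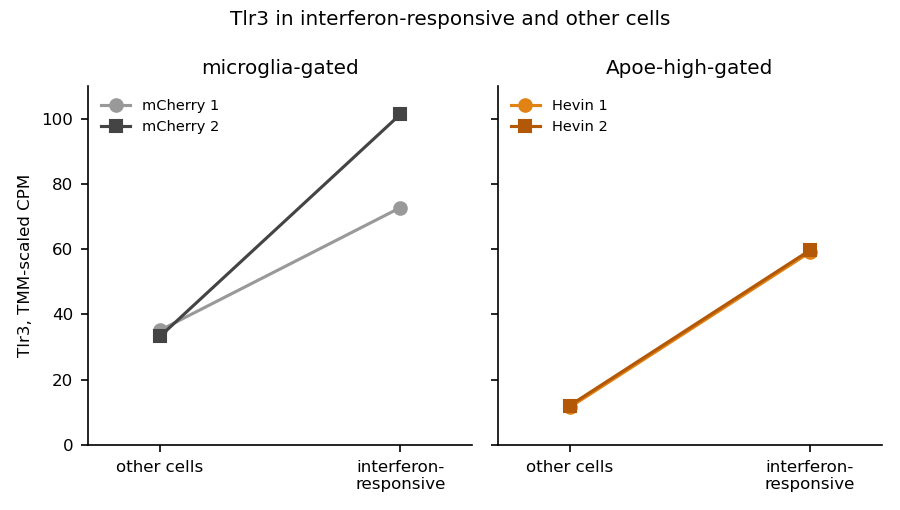
Tlr3 level (TMM-scaled CPM, vertical axis from 0) in interferon-responsive cells and in the other cells of the same gate, 1 line per library, for microglia-gated cells of the 2 mCherry libraries and Apoe-high-gated cells of the 2 Hevin libraries. All 4 lines rise, to 72.7 and 101 in microglia-gated and to 59.1 and 59.7 in Apoe-high-gated cells.

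In dividing microglia-gated cells (34 to 66 per library, 3 libraries) Tlr7 was lower than in the other microglia-gated cells, at 64.6, 86.3 and 117 against 129, 162 and 129 scaled CPM in mCherry replicates 1 and 2 and Hevin replicate 1 (log2 fold change -0.77 ± 0.19, edgeR adjusted p = 0.000914, against 16.4% of 13114 genes called, 7.71% higher and 8.71% lower). It was the 1 receptor called and was lost without mCherry replicate 1 (edgeR adjusted p = 0.154). Without Hevin replicate 1, Tlr2 was called lower as well (-1.34, edgeR adjusted p = 0.00621). Chemokine-expressing microglia-gated cells (20 to 52 per library) had no receptor call, against 3.87% of 12712 genes (1.97% higher and 1.90% lower), and 1768 genes had an unadjusted p under 0.05. No other tool was run on these cells.

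Libraries differed in sex, which bears on the X-linked Tlr7, Tlr8 and Tlr13. Among microglia-gated cells, 95.3% in mCherry replicate 2 and 94.7% in Hevin replicate 2 had an Xist UMI and no UMI of the Y-linked Uty, Kdm5d or Eif2s3y, against 0.22% in Hevin replicate 1. In mCherry replicate 1 both kinds of cell were present, 55.2% with Xist and no Y-linked UMI and 9.87% the reverse. A further 7.42% had both and 27.5% neither. In Hevin replicate 1, 21.4% had a Y-linked UMI and no Xist UMI, and 78.3% had neither. These UMIs therefore do not read the sex of each cell with certainty, and the 2 kinds may be mixed. Tlr7 was at 154 and 160 CPM in the microglia-gated cells of mCherry replicate 2 and Hevin replicate 2 and 123 and 119 CPM in those of mCherry replicate 1 and Hevin replicate 1. Within mCherry replicate 1, Tlr7 was at 123 CPM (95% Poisson interval 119 to 127) in the 8401 cells with Xist and no Y-linked UMI. It was at 130 CPM (121 to 140) in the 1503 cells with a Y-linked UMI and no Xist UMI. Tlr13 showed the same: 62.5 and 66.0 CPM in the replicate-2 libraries against 49.6 and 50.5 CPM in the others, but 49.8 CPM (47.3 to 52.4) and 49.9 CPM (44.1 to 56.2) in the cells of the 2 kinds in mCherry replicate 1. Replicate number, depth and sex cannot be told apart over the 4 libraries. Tlr2, on an autosome, was at 50.6 and 49.7 CPM in the same pair of cell groups of mCherry replicate 1.

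A list of 58 further genes of the pathway was followed through the same fits. In all kept cells, 8 of 58 were called higher and 1 lower for Hevin (median log2 fold change 0.03, against 0.00 over all genes), where 6.85% of all genes tested were called higher and 4.30% lower. The higher genes were the transcription factors Irf7 (log2 fold change 1.55 ± 0.11, edgeR adjusted p = 0.000515) and Nfkb2 (0.49), the Tlr4 partner Ly96 (0.43), the kinase Irak4 (0.29), and the brakes Nfkbia (0.95 ± 0.09, edgeR adjusted p = 0.00149), Irak3 (1.09), Tnfaip3 (0.50) and Dusp1 (0.39). Cd180, a surface protein related to Tlr4, was lower (-0.67 ± 0.17, edgeR adjusted p = 0.0475). Within microglia-gated cells 0 of 57 tested genes of the list were called, where 0 of all 17100 genes were. Within border-macrophage-gated cells 0 of 53 were called, where 0.585% of all 12309 genes were.

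Between classes the list split in both directions. In Apoe-high-gated against microglia-gated cells 17 genes were higher and 13 lower of 57 tested, where 20.8% of all genes were called higher and 18.9% lower. This fit had an infinite prior and included the 29 Apoe-high-gated cells of mCherry replicate 1, which were high in the interferon-response list. Values of the pathway genes from the Hevin libraries alone are not given. Over all genes, the 6137 calls of this fit became 2298 with DESeq2 and 1514 or 1208 without a Hevin library. The higher genes included Cd36, a scavenger receptor that works with Tlr2 (2.35 ± 0.14 on the log2 scale), Irf7 (1.84 ± 0.13), Nfkbia (1.26 ± 0.08), Dusp1 (1.03 ± 0.11), Nfkb2 (0.85 ± 0.09) and Tnfaip3 (0.77 ± 0.09). The lower genes included Cd180 (-1.35 ± 0.07), Slc15a4 (-0.46 ± 0.06), an endosomal transporter needed for Tlr7 and Tlr9 signalling, and the receptors Tlr5 (-0.86 ± 0.18) and Tlr12 (-0.58 ± 0.11). In border-macrophage-gated against microglia-gated cells 17 genes were higher and 24 lower, where 29.2% of all genes were called higher and 30.2% lower. Cd36 (5.49 ± 0.12), Dusp1 (2.68 ± 0.11), the flagellin receptor Tlr5 (1.64 ± 0.08) and the protease Ctsb (1.20 ± 0.05) were higher, and Tlr12 (-2.50 ± 0.13), Ly86 (-1.67 ± 0.04), Cd180 (-1.44 ± 0.07), Slc15a3 (-1.21 ± 0.05), Lgmn (-1.16 ± 0.03), Irak2 (-1.06 ± 0.06) and Irf8 (-1.01 ± 0.05) were lower. Unc93b1, the chaperone that carries the endosomal receptors, was lower too (-0.43 ± 0.04). Nfkbia rose in both classes, while Tnfaip3 fell in border-macrophage-gated cells (-1.05 ± 0.13, edgeR adjusted p = 2.4e-05).

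The genes whose levels were most like each receptor were ranked by Pearson's r of log2(CPM + 1), among 10005 genes. The r was taken over 20 sums, 4 libraries by the 5 classes with at least 20 cells in every library. These classes were microglia, border macrophage, MHC class II high, endothelial and astrocyte. Apoe-high-gated cells, in which Tlr1 and Tlr2 had their highest means, and monocyte-gated cells did not enter. For Tlr1 the Apoe-high libraries overlapped the border-macrophage libraries. These points share libraries and classes, so r is a description. Tlr4 was most like B3galnt1, Trafd1 and Tnfrsf1a (r = 0.976, 0.975 and 0.967), and Tlr8 most like Mrc1, Hmox1 and Rbpj (r = 0.947, 0.943 and 0.941). Tlr3 was most like Cadm1, Eva1a and Myo18a (r = 0.964, 0.957 and 0.949). Tlr2 was most like Zfp991, Rbm47 and Resf1 (0.972, 0.968 and 0.966), Tlr13 like Fkbp5 and Slc8a1 (0.971 and 0.952) and Tlr1 like Trf, Slc16a7 and Lrrc25 (0.954, 0.952 and 0.949). Tlr7 was most like Ssh2, Dyrk2 and Rnpep (0.954, 0.954 and 0.953) and Tlr6 like Trim12a, Smcr8 and Rcsd1 (0.949, 0.936 and 0.936). Tlr9, the most thinly counted member beside Tlr8, reached r = 0.809, 0.787 and 0.78 with Khk, Taf15 and Rrp36.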

How the data were processed

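Single-cell RNA libraries were analysed from the UMI count tables that the authors deposited, whose values are whole-number counts per gene and cell. Per the submitters' processing notes, mm10 served as the genome build. No source used here gives the aligner, counter, gene annotation, strand setting or cell calling. Cells under 500 UMIs or 300 genes, or over 10% mitochondrial UMIs, were removed, and each library held 49631807 to 67690880 kept UMIs. Cells were gated by the share of their UMIs from marker genes (at least 3 marker UMIs), with bounds set after seeing the marker distributions but not those of the receptors. The microglial bound was 0.3% (P2ry12, Tmem119), the Apoe bound 1.5% and the border macrophage bound 0.2%. No doublet caller was run. Cells that met more than 1 lineage gate were left out of the classes, and an alternative left out the 5% of cells with the highest UMIs. Counts were summed per library and class where at least 20 cells were present, since cells are not replicates. The sums were tested with edgeR 4.0.16 in R 4.3.3 (TMM scaling, filterByExpr, quasi-likelihood test, Benjamini-Hochberg adjustment over all genes tested, threshold 0.05). Class contrasts had the library as a block. Alternatives used DESeq2 1.42.0, other scalings, gene filters, cell filters and gates, and left out each library in turn. On simulated counts the fit of all kept cells (19106 genes) recovered 95% of 2-fold and 100% of 4-fold changes, the fit of microglia-gated cells (16964 genes) 86% and 99%, and the fit of Apoe-high-gated cells (15564 genes) 93% and 100%. The simulated counts had the same fixed spread for every gene and no library effects, and changes were placed in well-counted genes alone. These shares check the code and do not give the power of the real fits. All 9 receptors are named, of the 58 pathway genes at most the 12 of smallest p in a comparison plus Tlr5, Unc93b1 and Tnfaip3 (chosen after their values were seen), and the 3 genes most like each receptor, of which 1 is not reported here. The members, gene lists and tests were chosen with earlier results of these data known. Among the tables used, 0 columns belonged to samples outside the series.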

Additional observations from a re-analysis of the deposited data

How the results depend on the processing

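In all kept cells 3 receptors were called, and 5 with DESeq2, 5 without a gene filter, 5 with a replicate block and 4 to 5 without each library in turn. In microglia-gated cells 0 were called, and 2 (Tlr2 and Tlr8) without a gene filter and 2 with a replicate block (log2 fold changes 0.37 and 2.47, edgeR adjusted p = 0.00029 and 0.00325). In all kept cells the replicate block also called Tlr3 and Tlr13 (edgeR adjusted p = 0.0035 and 5.8e-05). The replicate numbers were not taken as pairs: same-numbered libraries deviated together (correlation 0.357 in all kept, 0.451 in microglia-gated and 0.238 in border-macrophage-gated cells), but there are only 2 pairs and the labels name nothing they share. In both replicate-2 libraries most microglia-gated cells had Xist and no Y-linked UMI. Each also had a higher median depth than replicate 1 of its group. The replicate-1 libraries differed from each other in these sex-linked UMIs. Leaving out 1 library moved the number of receptors called from 5 to between 2 and 6 for Apoe-high against border-macrophage-gated cells, from 5 to between 2 and 6 for cells with microglial markers and high Apoe, from 1 to between 0 and 2 for dividing cells, and from 1 to between 0 and 1 for monocyte-gated cells. Over all genes, the 2131 calls in all kept cells became 1323 in cells with at least 3000 UMIs and 4533 with the replicate block. The 0 calls in microglia-gated cells became 137 with DESeq2, 313 without a gene filter, 742 with the replicate block and 16 to 81 without each library. The 72 calls in border-macrophage-gated cells became 360 without a gene filter, 157 with the replicate block and up to 386 without a library. The 6137 calls for Apoe-high-gated cells became 2298 with DESeq2 and 1514 or 1208 without a Hevin library. The cause of these shifts was not tested. Of 747 single-receptor values under an alternative, 700 kept their side of the threshold, 27 lost the call and 20 gained it. Among values called in the main fit or the alternative, 0 changed sign. Sign changes of values called in neither were not counted. Leaving out a library was not run for mural-gated and interferon-responsive cells, where fewer than 2 libraries would remain. Depth limits Tlr8 and Tlr9 most.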
